A study of Rattus norvegicus with 16 samples.

Results

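The transcripts of 10 rat genes for interleukins, related cytokines and their receptors were followed in 2 kidney cell lines at 2 values of medium pH. The ligand genes are Il33, Il1a, Il18, Il6, Il11, Lif and Csf1, and the receptor genes are Il1rl1, Il6st and Osmr. They were chosen from measured values: the fall of Il33 in NRK-52E cells at pH 6.0 led to the choice, and the other genes were placed beside it as related cytokines and receptors. All 10 are among the 32623 genes of the count table. For these 10 genes the pH contrast in NRK-52E cells is therefore given as a description without a test, and so is Il33 in comparisons between the cell lines. Tests are given for the pH contrast in NRK-49F cells without Il6, and for the comparisons between the lines without Il33, Il1rl1, Il6 and Il11. Apart from Il33, these genes, where they passed the filter on low counts in those comparisons, did so only through the group in which they are higher. Il1a and Il18 did not pass that filter in any of those comparisons. Neither did Il11 for pH in NRK-49F or Il6 between the lines at pH 7.4, so these have no test there. Whether the 2 lines responded differently to pH was fitted for all genes, but for these 10 it is not given as a test, since the NRK-52E contrast is part of that fit.

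NRK-52E cells are an epithelial line that serves as a model of the renal proximal tubule, and NRK-49F cells are fibroblasts, both derived from the kidney of a normal rat. All cells were in indirect co-culture, with NRK-52E on filter inserts above NRK-49F on the plate bottom and the medium shared, so the controls were co-cultures too, and cell line and growth surface cannot be told apart. After 24 h without added serum, the co-cultures were kept for 48 h at pH 7.4 (control) or pH 6.0 (acidosis), which the labels write as 7 and 6. Each cell line and pH has 4 libraries of poly(A)-enriched RNA, 16 in all: N1, N2, N5 and N6 are NRK-52E at pH 7.4, N3, N4, N7 and N8 are NRK-52E at pH 6.0, N9, N10, N13 and N14 are NRK-49F at pH 7.4, and N11, N12, N15 and N16 are NRK-49F at pH 6.0. Library names carry a second number whose meaning is not given, 21 (N1 to N4) or 22 (N5 to N8) in NRK-52E and 20 (N9 to N12) or 21 (N13 to N16) in NRK-49F. The count total of a library lay between 16201084 and 34784862 fragments, with medians of 19132388 and 21199012 in NRK-52E at pH 7.4 and 6.0 and of 20316554 and 29093537 in NRK-49F. Levels are fragments per 1000000 counted fragments (FPM) after TMM scaling over the 16 libraries, given as mean ± SD of 4 libraries, and they are not divided by gene length, so they are compared between groups and not between genes. A gene was called changed when the false discovery rate was below 0.01 in both edgeR and DESeq2 with the same sign. Nothing says that the libraries of a group come from separate cultures, so p-values measure the spread between these libraries, which may be technical. Over all genes N8 stood furthest from its group, by the chi-square per degree of freedom between 2 libraries (1 for counting error alone). It was 43.7, 92.2 and 71.5 from N8 to N3, N4 and N7. Between the other libraries of that group it was 39.4 (N3 and N4), 31.2 (N3 and N7) and 9.11 (N4 and N7). The largest values in the other groups were 27.8, 53.2 and 62.1.

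Interleukin-33 and interleukin-1α are stored in the cell, often in the nucleus, and act as alarm signals when cells are damaged, while interleukin-18 is made as a precursor that caspase-1 cleaves. Interleukin-33 is read by the receptor ST2, encoded by Il1rl1, together with the accessory chain of the interleukin-1 receptor, and signals through MyD88 to NF-κB. Interleukin-6, interleukin-11 and leukemia inhibitory factor each bind their own receptor chain and signal through the shared chain gp130, encoded by Il6st, to JAK kinases and STAT factors, and Osmr encodes the chain that pairs with gp130 for oncostatin M. Csf1 encodes the main growth factor of macrophages. In the kidney these signals are known from tubular injury, inflammation and fibrosis.

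Markers of the labelled cell types were read first. Of 10 epithelial markers, 5 reached 1 FPM in NRK-52E at pH 7.4. Krt8 led them at 430.4 ± 32.0 FPM, and Ocln, a tight junction gene, was at 41.2 ± 2.04 FPM there and without a count in NRK-49F at pH 7.4. Cdh1, the defining epithelial cadherin, was only at 1.62 ± 0.221 FPM in NRK-52E at pH 7.4 and 0.315 ± 0.157 at pH 6.0, Epcam was at 0.0221 ± 0.0256 and 0.0118 ± 0.0235 FPM, and Esrp1 had no count in any library of either line. Krt8 was read in NRK-49F as well, at 848 ± 70.4 FPM at pH 7.4 and 206 ± 9.43 at pH 6.0. The 8 proximal tubule markers summed to 56.3 to 74.9 FPM in NRK-52E at pH 7.4 and 25.9 to 36.9 at pH 6.0. Aqp1 led them at 34.4 ± 7.64 and 26.4 ± 3.95 FPM and Anpep, a brush border gene, was at 28.5 ± 1.10 and 1.25 ± 0.324 FPM, with Slc34a1 at 0 in every NRK-52E library and Lrp2 (megalin) at 0.634 ± 0.293 and 0.0118 ± 0.0235 FPM. In NRK-49F the same 8 genes summed to 142 to 195 and 364 to 560.4 FPM, led by Ggt1. NRK-52E thus held some tubular markers and lacked others, and the line is called by its name here.

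Fibroblast markers were high in both lines but led by different collagens. The 10 genes summed to 6701 to 7751 FPM in NRK-49F at pH 7.4 and 7902 to 9556 at pH 6.0, led by Col1a1 at 6205 ± 409.7 and 8288 ± 922 FPM, with Pdgfra at 392 ± 54.7 and 368 ± 155 FPM. In NRK-52E they summed to 6274 to 6529 and 1939 to 3324 FPM, almost all of it Col3a1 at 6221 ± 95.005 and 2630.4 ± 602 FPM, while Pdgfra was at 0.286 ± 0.110 and 0.0561 ± 0.0871 FPM. Thy1 had no count in any library. Of the 6 leukocyte markers, which cover cells that make and read many of these cytokines, Cd68, a lysosomal gene, was the most abundant, at 1.72 ± 0.453 and 2.38 ± 0.357 FPM in NRK-52E cells at pH 7.4 and 6.0 and 81.2 ± 16.4 and 243 ± 20.2 FPM in NRK-49F cells. Ptprc, the pan-leukocyte marker, and Adgre1 had no count in any library, and the 6 genes summed to 1.76 to 2.76, 2.02 to 2.91, 62.5 to 97.8 and 225 to 263 FPM in these 4 groups. At pH 6.0, 28.2% of all genes tested were called higher and 28.5% lower in NRK-52E, and 18.4% and 19.4% in NRK-49F. Beside these shares, all 5 epithelial markers that passed the filter on low counts and 4 of 6 fibroblast markers were called lower in NRK-52E, 2 of 5 tubular markers were lower, 1 fibroblast marker was higher, and Cd68, the only leukocyte marker that passed, was not called. In NRK-49F, 2 of 3 epithelial, 2 of 5 tubular and 3 of 7 fibroblast markers were lower, and 1 tubular marker, 1 fibroblast marker and Cd68 were higher. Of the called markers, Cdh1, Slc5a2 and Dcn in NRK-52E and Cldn1 and Slc5a2 in NRK-49F passed the filter only through their higher group. The called markers changed with pH in the libraries that the cytokine genes were read in, while the other markers were not called. The part of the markers in the results below was not tested.

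Il33, on chromosome 1 of rn6, was read most in NRK-49F and fell at pH 6.0 in both lines. In NRK-52E at pH 7.4 its level was 18.3, 19.2, 24.0 and 26.8 FPM in N1, N2, N5 and N6, and at pH 6.0 it was 0.306, 0, 0.0410 and 0.470 FPM in N3, N4, N7 and N8, from 5, 0, 1 and 10 fragments. All 4 acidotic libraries lay close to 0 and far below all 4 controls. Summed over the libraries, 2001 fragments at pH 7.4 stood against 16 at pH 6.0, a ratio of 116 after scaling with a 95% Poisson interval of 71.2 to 203 that covers counting error only. The fitted log2 fold change was −6.82 (SE 0.5004), and it was −7.79 without N8, which holds 10 of the 16 fragments, −6.40 without N4 and −6.43 without N7. This is the contrast that chose the genes, so it has no test here.

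In NRK-49F cells, whose values are not those that led to the choice, though results of these data were known then, Il33 was at 744, 681, 672 and 670.3 FPM in N9, N10, N13 and N14 at pH 7.4 and at 242, 267, 231 and 281 FPM in N11, N12, N15 and N16 at pH 6.0. The 4 acidotic libraries lay below the 4 controls without overlap. The mean fell from 692 ± 35.0 to 255 ± 22.8 FPM, which is a log2 fold change of −1.45 (SE 0.0983), with an adjusted p of 4.11e-07 in edgeR's quasi-likelihood test and 1.24e-47 in DESeq2. Within the libraries that share a second number, the log2 ratio of the means was −1.48 for 20 and −1.39 for 21, and in NRK-52E it was −6.94 for 21 and −6.63 for 22. The order of the levels was NRK-49F at pH 7.4, NRK-49F at pH 6.0, NRK-52E at pH 7.4 and NRK-52E at pH 6.0, and no neighbours in this order overlapped. The mean of NRK-49F was 31.3 times that of NRK-52E at pH 7.4, and at pH 6.0 the summed counts differed 1342-fold (95% interval 826 to 2349), both as a description. Without N8 the summed counts differed 2676-fold. In bulk libraries such as these, fewer cells that express a gene and less RNA per cell cannot be told apart.

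Il1rl1, which encodes the interleukin-33 receptor ST2, moved against its ligand in NRK-49F and was not read in NRK-52E. Its level in NRK-49F was 2.46, 3.49, 6.06 and 4.59 FPM in N9, N10, N13 and N14 at pH 7.4 and 11.95, 18.8, 18.5 and 18.7 FPM in N11, N12, N15 and N16 at pH 6.0. Each acidotic library lay above each control, with N11 the lowest of the acidotic ones. The mean rose from 4.15 ± 1.54 to 17.0 ± 3.36 FPM, which is a log2 fold change of 2.02 (SE 0.253) with an adjusted p of 4.01e-05 in edgeR's quasi-likelihood test and 3.72e-15 in DESeq2. Within the second numbers 20 and 21 the log2 ratio of the means was 2.37 and 1.80. Since both genes were counted in the same libraries, their count ratio needs no scaling between libraries: Il33 had 303, 195, 111 and 146 fragments for each Il1rl1 fragment in N9, N10, N13 and N14, and 20.2, 14.2, 12.53 and 15.02 in N11, N12, N15 and N16. This ratio also holds the lengths of the 2 transcripts, so only its difference between the groups is read, and the groups did not overlap.

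None of the 8 NRK-52E libraries held a fragment of Il1rl1, and a floor of 3 counts over a group of 4 libraries allows up to 0.0330 FPM at pH 7.4 and 0.0356 FPM at pH 6.0. With that floor, Il1rl1 was at least 125-fold lower in NRK-52E than in NRK-49F at pH 7.4 and at least 481-fold lower at pH 6.0. These bounds are given without a test, since the gene passed the filter on low counts only through NRK-49F. A change of Il1rl1 with pH in NRK-52E was not detectable at this depth.

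Il1a and Il18 were near the limit of detection and passed the filter on low counts in none of the 4 comparisons between groups. Il1a, the gene of interleukin-1α on chromosome 3, had 1 fragment over the 4 control libraries of NRK-49F (N9) and 6, 2, 5 and 3 in N11, N12, N15 and N16 at pH 6.0. The ratio of these sums was 12.4, with a 95% interval of 1.93 to 519.6, so the size of the difference is hardly fixed. In NRK-52E there was 1 fragment in all, in N6 at pH 7.4. Il18, on chromosome 8, had 8, 7, 5 and 9 fragments in N1, N2, N5 and N6 (0.324 ± 0.0975 FPM) and no fragment in N3, N4, N7 and N8, which makes it at least 8.96-fold lower at pH 6.0, as a description. For NRK-49F the Il18 counts were 11, 9, 15 and 30 in N9, N10, N13 and N14 and 0, 4, 3 and 14 in N11, N12, N15 and N16, or 0.814 ± 0.333 against 0.200 ± 0.193 FPM. These groups did not overlap in FPM, and the summed counts gave a 3.997-fold lower level at pH 6.0 (95% interval 2.41 to 6.88), with no test, and an 8.17-fold lower level without N16, which holds 14 of the 21 acidotic fragments. In the GRCr8 annotation Il18 overlaps Bco2 and Tex12, Il1a overlaps a long noncoding RNA, as do Il33, Il6st and Csf1, and the use of strand in counting is not named, so the few fragments of Il18 and Il1a cannot be assigned to them with certainty.

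**Figure D1:**
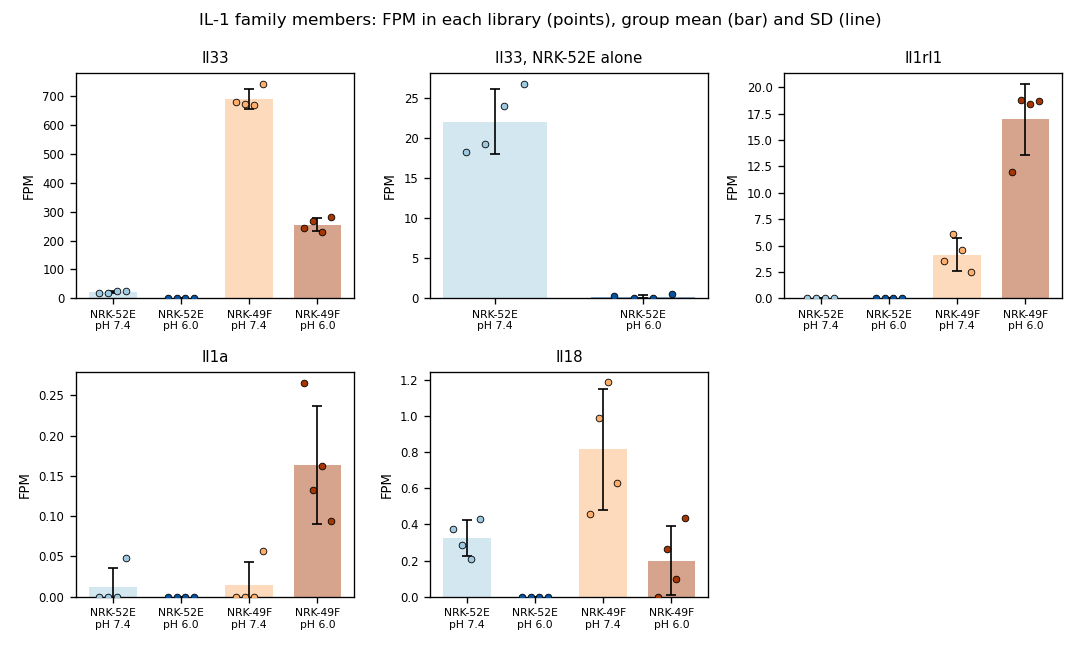
FPM of Il33, Il1rl1, Il1a and Il18 in the 4 groups of cell line and pH, on linear axes from 0 that differ between panels, with a point for each of the 4 libraries, a bar for the mean and a line for the SD. Il33 is shown a second time for NRK-52E alone, where it went from 22.1 to 0.204 FPM, and in NRK-49F the Il33 points at pH 6.0 lie below and the Il1rl1 points above those at pH 7.4.

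The rest of the interleukin-1 family was read from a list of 15 ligands, receptors and modulators, of which 5 passed the filter for NRK-52E cells and 6 for NRK-49F cells. In NRK-52E, 56.7% of the 13735 genes tested were called changed at pH 6.0, 28.2% higher and 28.5% lower. On the list 1 gene was higher and 3 were lower, with a median log2 fold change of −1.91 against 0.00 over all genes tested. Il1r1, the signalling receptor of interleukin-1, fell from 41.3 ± 4.96 to 11.1 ± 1.90 FPM, and Il1rn, the gene of its secreted antagonist, fell from 16.6 ± 1.30 to 1.29 ± 0.448 FPM. Il18r1, the interleukin-18 receptor chain, had 174 fragments at pH 7.4 and none at pH 6.0, at least 53.8-fold lower. This bound is a description, since Il18r1 passed the filter only through its higher group. Il18bp, which encodes a decoy that binds interleukin-18, rose from 8.77 ± 1.06 to 19.5 ± 4.11 FPM.

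In NRK-49F, 37.8% of the 13339 genes tested were called, 18.4% higher and 19.4% lower. Of the 6 measured list genes, 2 were higher and 3 lower, with a median log2 fold change of −0.66 against 0.00 over all genes tested. Il1rap, the accessory chain that ST2 and the interleukin-1 receptor share, rose from 7.21 ± 0.741 to 15.001 ± 1.16 FPM (log2 fold change 1.04, adjusted p 8.50e-05 in edgeR's quasi-likelihood test). Il1r1 fell from 78.1 ± 18.4 to 24.3 ± 3.89 FPM, Il1rn from 2.19 ± 0.348 to 0.687 ± 0.485 FPM and Il18bp from 24.0 ± 2.103 to 9.46 ± 1.60 FPM. Il18bp was thus called in opposite directions in the 2 lines. The other called rise in NRK-49F was that of Il1rl2, from 0.0890 ± 0.0733 to 0.920 ± 0.234 FPM. This rise and the fall of Il1rn in NRK-49F are a description, since both genes passed the filter there only through their higher group.

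Among 14 genes for release and signal transduction of the family, 13 passed the filter in each line. In NRK-52E 3 were higher and 2 lower (median log2 fold change 0.00). Casp1, the caspase that matures interleukin-18, rose from 0.755 ± 0.149 to 2.59 ± 0.445 FPM, Tollip, an inhibitor of the receptor complex, from 132 ± 1.20 to 214 ± 19.5 FPM, and Gsdmd, which forms the pore of cytokine release, from 144 ± 11.8 to 193 ± 12.03 FPM. Irak4 and Myd88, the proximal kinase and adaptor, went from 16.2 ± 0.554 to 11.9 ± 1.25 FPM and from 47.5 ± 2.29 to 37.3 ± 3.47 FPM, without overlap between the groups. These 2 calls stood near the threshold: the number of falls was 0 without N1, N2, N3 or N6 and 1 without N4, N5 or N7, and the number of rises was 5 without N8. In NRK-49F 4 were lower and 9 were not called (median 0.05), with Pycard, the inflammasome adaptor, falling from 13.2 ± 2.61 to 3.70 ± 1.97 FPM, Myd88 from 50.7 ± 2.58 to 34.9 ± 2.36 FPM and Irak4 from 27.6 ± 1.68 to 19.8 ± 1.14 FPM.

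All 14 NF-κB subunits and inhibitors passed the filter. In NRK-52E 5 were higher and 2 lower (median log2 fold change 0.12), with Chuk, the IKKα kinase, rising from 38.6 ± 1.85 to 95.1 ± 17.5 FPM, Nfkbib from 7.13 ± 1.32 to 16.1 ± 0.975 FPM and Bcl3 from 1.95 ± 0.335 to 4.16 ± 0.913 FPM. Tnfaip3, an NF-κB target that feeds back on the pathway, fell from 14.96 ± 3.29 to 4.62 ± 2.07 FPM and Nfkb1 from 63.8 ± 2.05 to 51.4 ± 3.91 FPM. The number of falls was 1 without N2, N5, N6 or N7. In NRK-49F 1 was higher and 5 lower (median −0.38): Chuk rose from 26.9 ± 1.41 to 50.4 ± 2.21 FPM, while Nfkbiz fell from 31.8 ± 5.02 to 13.7 ± 3.53 FPM, Relb from 34.9 ± 1.14 to 17.3 ± 5.42 FPM and Tnfaip3 from 19.2 ± 2.15 to 9.69 ± 2.53 FPM. Chuk and Tnfaip3 were called in the same direction in both lines, and Relb and Nfkb2 in opposite directions, with Relb at 14.8 ± 1.32 and 29.3 ± 5.67 FPM in NRK-52E at pH 7.4 and 6.0.

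Il6, on chromosome 4, was read at very low levels and almost only in NRK-49F. Its counts in NRK-49F were 0, 2, 8 and 3 fragments in N9, N10, N13 and N14 at pH 7.4 and 11, 9, 39 and 36 in N11, N12, N15 and N16 at pH 6.0, or 0, 0.101, 0.527 and 0.119 FPM against 0.487, 0.597, 1.27 and 1.13 FPM. The groups overlapped, since N13 at pH 7.4 lay above N11 at pH 6.0, while the other 3 controls lay below all acidotic libraries. The summed counts gave a 5.66-fold higher level at pH 6.0 (95% interval 3.16 to 11.02), and 11.8-fold without N13, which holds 8 of the 13 control fragments. These values are a description without a test, since Il6 passed the filter there only through the acidotic libraries. Within the second numbers 20 and 21 the log2 ratio of the means was 3.42 and 1.89, from 2 libraries a group.

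In NRK-52E, Il6 had 4 fragments over the 4 libraries at pH 7.4 and 5 at pH 6.0, a ratio of 1.35 with a 95% interval of 0.290 to 6.79, so no difference was detectable at this depth. Without N5, which holds 3 of the 4 control fragments, the ratio was 3.96. At pH 6.0 it was lower in NRK-52E than in NRK-49F, with 0.0552 ± 0.0423 against 0.869 ± 0.385 FPM, no overlap and 15.9-fold lower summed counts after scaling (95% interval 6.60 to 50.2), without a test, since Il6 passed the filter there only through NRK-49F. At pH 7.4 Il6 did not pass the filter in this comparison, and the groups overlapped.

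Il11, on chromosome 1, encodes a cytokine known from fibrosis and was the member read more in NRK-52E than in NRK-49F at both pH values with no overlap between the lines. Its level was 2.81, 2.95, 3.11 and 2.57 FPM in N1, N2, N5 and N6 and 0.917, 0.854, 1.11 and 2.30 FPM in N3, N4, N7 and N8. The acidotic libraries lay below the controls without overlap, with N8 close to them, and the log2 fold change of −1.15 (SE 0.323) was −1.59 without N8, as a description. Within the second numbers the log2 ratio of the means was −1.70 for 21 and −0.74 for 22, which holds N8. In NRK-49F the 4 libraries held 4, 13, 5 and 15 fragments at pH 7.4 and 4, 1, 5 and 0 at pH 6.0, or 0.452 ± 0.206 and 0.101 ± 0.0836 FPM, which did not overlap. The gene did not pass the filter there, and the summed counts gave a 4.78-fold lower level at pH 6.0 (95% interval 2.33 to 10.8). Between the lines the log2 fold change was 2.68 (SE 0.290) at pH 7.4 and 3.61 (SE 0.635) at pH 6.0, without a test, since Il11 passed the filter in these comparisons only through NRK-52E.

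Lif, on chromosome 14, was higher in NRK-52E than in NRK-49F at pH 6.0 and was not called between the lines at pH 7.4. In NRK-52E it was at 12.4, 12.7, 10.53 and 11.04 FPM in N1, N2, N5 and N6 and at 40.1, 56.3, 51.5 and 20.4 FPM in N3, N4, N7 and N8. Every acidotic library lay above every control, and N8 lay well below the other acidotic ones. The mean went from 11.7 ± 1.04 to 42.1 ± 15.997 FPM, with a log2 fold change of 1.82 (SE 0.257) that was 2.05 without N8, as a description, and within the second numbers 21 and 22 the log2 ratio of the means was 1.94 and 1.74. For NRK-49F the Lif levels were 12.3, 13.1, 6.45 and 17.8 FPM at pH 7.4 and 16.2, 13.46, 19.9 and 16.7 FPM at pH 6.0, which overlapped, and the log2 fold change of 0.39 (SE 0.235) did not pass, with an adjusted p of 0.178 in edgeR's quasi-likelihood test. NRK-52E stood 1.32 (SE 0.259) above NRK-49F on the log2 scale at pH 6.0, without overlap and with an adjusted p of 5.92e-04 in edgeR's quasi-likelihood test, while at pH 7.4 the difference was −0.02 (SE 0.236, adjusted p 0.936 in edgeR's quasi-likelihood test).

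Il6st, the gene of the shared receptor chain gp130 on chromosome 2, was read in all groups and showed no call for pH. Its range was 94.0 to 161 FPM in NRK-52E at pH 7.4, 40.6 to 161 at pH 6.0, 36.9 to 96.6 in NRK-49F at pH 7.4 and 101 to 116 at pH 6.0. The spread within groups was wide except in NRK-49F at pH 6.0, with N8 the lowest library of NRK-52E and N13 the lowest of NRK-49F. In NRK-49F all 4 acidotic libraries lay above the controls, but the log2 fold change of 0.48 (SE 0.218) had an adjusted p of 0.0804 in edgeR's quasi-likelihood test. In NRK-52E it was −0.41 (SE 0.330), and −0.14 without N8, with overlapping groups. Within the second numbers the log2 ratio of the means there was 0.00605 for 21, with overlap, and −0.82 for 22, without overlap. At pH 7.4 Il6st was higher in NRK-52E than in NRK-49F by 0.96 (SE 0.259) on the log2 scale, with an adjusted p of 0.00557 in edgeR's quasi-likelihood test, though N1 of NRK-52E lay below N10 of NRK-49F. This call was lost without N2, N5, N6, N9 or N14, with adjusted p-values of 0.0187, 0.0184, 0.0127, 0.0103 and 0.0133 in edgeR's quasi-likelihood test, and in one fit of all 16 libraries (0.0179). At pH 6.0 the difference between the lines was −0.02 (SE 0.295), which did not pass.

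Osmr, the oncostatin M receptor chain on chromosome 2, ranged from 6.19 to 9.10 FPM in NRK-52E at pH 7.4, 7.38 to 12.7 at pH 6.0, 4.08 to 8.29 in NRK-49F at pH 7.4 and 3.25 to 5.80 at pH 6.0. The pH groups overlapped in both lines, with a log2 fold change of 0.55 (SE 0.201) in NRK-52E, as a description, and of −0.51 (SE 0.253, adjusted p 0.107 in edgeR's quasi-likelihood test) in NRK-49F. Within a second number, with 2 libraries a group, they did not overlap, and the log2 ratio of the means was 0.57 for 21 and 0.58 for 22 in NRK-52E and −0.57 for 20 and −0.38 for 21 in NRK-49F. At pH 6.0 all 4 NRK-52E libraries lay above all 4 of NRK-49F, 10.8 ± 2.48 against 4.29 ± 1.09 FPM, with a log2 fold change of 1.32 (SE 0.245) and an adjusted p of 3.87e-04 in edgeR's quasi-likelihood test. At pH 7.4 the lines overlapped, and the log2 fold change was 0.35 (SE 0.215, adjusted p 0.157 in edgeR's quasi-likelihood test).

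Csf1, on chromosome 2, was mainly a transcript of NRK-49F. NRK-49F libraries held 964, 877, 670.3 and 759 FPM at pH 7.4 and 902, 689, 578 and 521 FPM at pH 6.0, while those of NRK-52E ranged from 77.3 to 85.1 FPM and from 56.3 to 64.5 FPM. NRK-49F lay above NRK-52E in every library at each pH, 10.05 times as high at pH 7.4 and 11.4 times at pH 6.0, with log2 fold changes of NRK-52E over NRK-49F of −3.25 (SE 0.116) and −3.53 (SE 0.176) and adjusted p-values of 3.64e-10 and 4.54e-09 in edgeR's quasi-likelihood test. With pH the groups of NRK-49F overlapped, and the log2 fold change of −0.29 (SE 0.171) had an adjusted p of 0.168 in edgeR's quasi-likelihood test. In NRK-52E the acidotic libraries lay below the controls without overlap, with a log2 fold change of −0.49 (SE 0.0816), as a description.

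**Figure D2:**
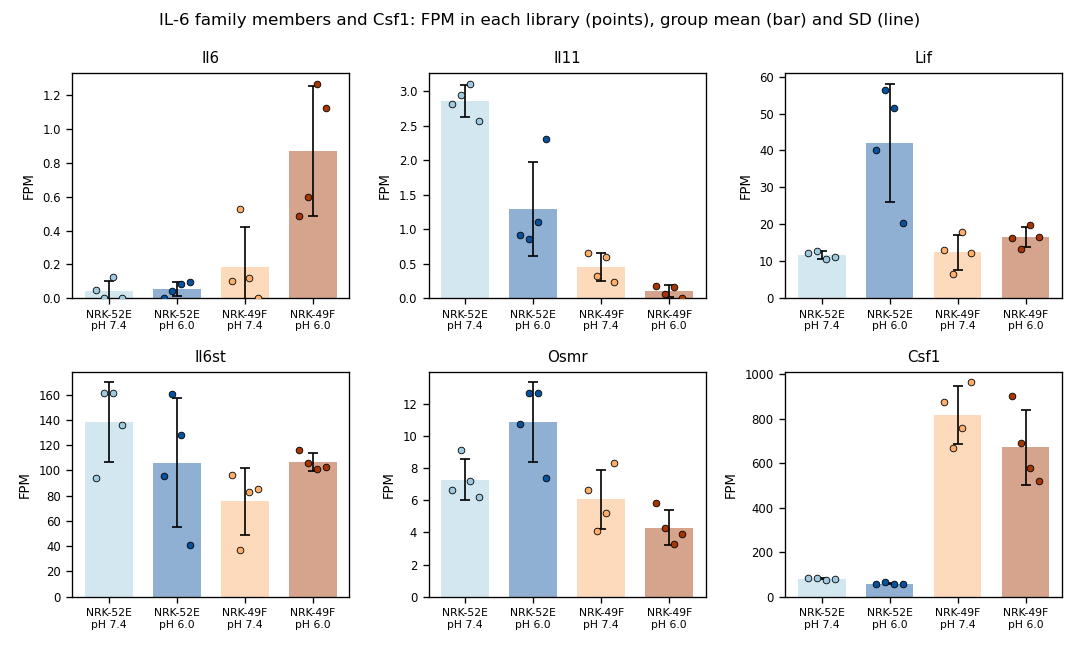
FPM of Il6, Il11, Lif, Il6st, Osmr and Csf1 in the 4 groups, on linear axes from 0 that differ between panels, with a point for each of the 4 libraries, a bar for the mean and a line for the SD. Lif in NRK-52E at pH 6.0 lies between 20.4 and 56.3 FPM, above all other NRK-52E libraries, and Csf1 is higher in all NRK-49F libraries than in any of NRK-52E.

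Counted over the 10 genes, 7 passed the filter in the pH contrast of NRK-49F, of which Il1rl1 was called higher, Il33 lower and 4 were not called, with Il6 left untested. The share of called genes among all genes tested there, given above, is larger than this, so the count says nothing particular about these genes. In NRK-52E 6 passed, and since this contrast chose the genes nothing is read from a count of their calls. Between the lines at pH 7.4, 66.6% of the 14026 genes tested were called, 33.3% higher in NRK-52E and 33.3% lower, and of the 4 members with a test Il6st and Csf1 were called and Lif and Osmr were not. At pH 6.0, 59.8% of 13796 genes were called, 28.6% higher and 31.3% lower, and of the same 4 members Lif, Osmr and Csf1 were called and Il6st was not. These counts of few genes support nothing by themselves.

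The IL-6 family beyond these members was read from 12 ligands and receptors, of which 7 passed the filter in each line. In NRK-52E 1 was higher and 4 lower (median log2 fold change −0.95). Cntf, the ciliary neurotrophic factor, rose from 3.46 ± 0.423 to 8.51 ± 2.71 FPM. Lifr, the receptor chain for leukemia inhibitory factor, fell from 2.08 ± 0.402 to 0.461 ± 0.308 FPM, while Lif itself was higher there. Both are descriptions, since Lifr passed the filter only through its higher group and Lif has no test there. In NRK-49F Lifr was at 0.00988 ± 0.0198 and 0 ± 0 FPM. Ctf1, the gene of cardiotrophin-1, fell from 46.3 ± 4.85 to 12.4 ± 2.74 FPM. In NRK-49F 1 was higher and 2 lower (median −0.26). Il11ra1, the interleukin-11 receptor chain, fell from 189 ± 14.1 to 72.9 ± 6.92 FPM and Ctf1 from 8.70 ± 0.693 to 2.76 ± 0.885 FPM. Ctf1 and Il11ra1 were called lower in both lines.

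JAK-STAT transduction was covered by 18 measured genes. In NRK-52E 6 were higher and 8 lower (median log2 fold change −0.24). Socs1, a feedback inhibitor of JAK kinases, rose from 1.99 ± 0.343 to 6.12 ± 1.79 FPM, Pias3, an inhibitor of STAT3, from 55.9 ± 3.06 to 113 ± 22.6 FPM and Ptpn6, the phosphatase SHP-1, from 9.79 ± 1.34 to 17.2 ± 2.14 FPM. Stat5a fell from 32.3 ± 1.14 to 11.2 ± 0.736 FPM and Jak3 from 10.8 ± 0.702 to 5.49 ± 1.39 FPM. In NRK-49F 1 was higher and 6 lower (median −0.26). Pias1 rose from 17.5 ± 1.55 to 24.8 ± 2.76 FPM, a call that was lost without N11, N14 or N16 (count 0), and the feedback inhibitors Socs2 and Cish fell from 1.09 ± 0.333 to 0.219 ± 0.0973 FPM and from 17.7 ± 0.943 to 8.49 ± 0.539 FPM. Socs2 was called lower in NRK-52E too. Its fall is a description in both lines, since it passed the filter only through its higher group. Ptpn6 fell in NRK-49F from 8.78 ± 1.42 to 4.21 ± 0.916 FPM, against its rise in NRK-52E, and Pias3 was also called lower in NRK-49F.

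Of the 7 colony-stimulating factors and receptors, 3 passed the filter in each line. In NRK-52E Csf1r, the receptor of the Csf1 product, rose from 0.243 ± 0.0325 to 1.08 ± 0.215 FPM, Csf3, the granulocyte factor, fell from 1.99 ± 0.358 to 0.0317 ± 0.0396 FPM and Csf2ra from 15.4 ± 1.36 to 7.88 ± 0.843 FPM (median log2 fold change −0.99). In NRK-49F Il34, the other ligand of the Csf1 receptor, fell from 1.26 ± 0.392 to 0.153 ± 0.0912 FPM, Csf2 from 1.43 ± 0.394 to 0.241 ± 0.159 FPM and Csf2ra from 19.2 ± 3.90 to 4.70 ± 0.768 FPM (median −2.46). These were all the measured genes of the list in each line, and apart from Csf2ra they were at 2 FPM or below and passed the filter only through their higher group, so these calls and medians support little.

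Most other interleukins did not pass the filter on low counts: of 26 listed, 25 are in the table, and 5 passed the filter for NRK-52E cells and 6 for NRK-49F cells. In NRK-52E 1 was higher and 2 lower (median log2 fold change −0.73). Il23a, the p19 chain of interleukin-23, rose from 2.71 ± 0.543 to 14.2 ± 5.45 FPM, while Il16, a chemoattractant of lymphocytes, fell from 55.2 ± 5.08 to 4.44 ± 1.95 FPM and Il17d from 3.999 ± 0.653 to 0.720 ± 0.629 FPM. In NRK-49F 4 were lower and 2 were not called (median −1.30). Among the lower ones were Tslp, an epithelial alarm cytokine, from 2.45 ± 0.966 to 0.404 ± 0.182 FPM, Il19 from 1.85 ± 0.469 to 0.479 ± 0.208 FPM and Il17d from 5.45 ± 0.944 to 1.47 ± 0.531 FPM. Tslp and Il19 in NRK-49F and Il17d in NRK-52E passed the filter only through their higher group, so these falls are a description.

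Of 26 other interleukin receptor genes, 25 are in the table and 13 passed the filter in each line. In NRK-52E 4 were higher and 3 lower (median log2 fold change 0.13). Il17rc rose from 35.4 ± 2.50 to 73.0 ± 11.9 FPM, Crlf2, the receptor chain for TSLP, from 50.1 ± 4.21 to 91.7 ± 10.2 FPM and Il9r from 0.303 ± 0.0840 to 1.53 ± 0.446 FPM. Il15ra was also called higher. The rises of Il9r and Il15ra in NRK-52E are a description, since both passed the filter there only through their higher group. Il22ra1, the epithelial receptor chain for interleukin-22, fell from 25.9 ± 2.90 to 2.15 ± 1.11 FPM, Il20rb from 35.0 ± 1.33 to 5.34 ± 0.762 FPM and Il17rd from 7.53 ± 0.994 to 2.57 ± 1.27 FPM. In NRK-49F 2 were higher and 7 lower (median −0.58), with Il15ra rising from 2.76 ± 0.467 to 6.40 ± 1.05 FPM and Il13ra1 from 20.1 ± 6.95 to 40.6 ± 6.03 FPM, and with Il20rb falling from 71.6 ± 14.9 to 16.6 ± 3.05 FPM, Il17re from 13.8 ± 2.94 to 4.59 ± 1.17 FPM and Crlf2 from 38.0 ± 3.65 to 25.8 ± 3.37 FPM.

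Over the 8 lists together, which hold none of the 10 members, 22 of 78 measured genes were higher and 26 lower at pH 6.0 in NRK-52E, and 7 of 80 were higher and 34 lower in NRK-49F. The called share of the list genes was 61.5% for NRK-52E cells and 51.2% for NRK-49F cells, beside the shares of all genes tested given above, and the median log2 fold change was −0.08 and −0.44. Of the called list genes, 8 of 48 for NRK-52E cells and 7 of 41 for NRK-49F cells passed the filter only through their higher group, which may favour a call. Over all called genes these were 1001 of 7793 and 422 of 5039. Of all genes that passed in this way, 1001 of 1537 were called in NRK-52E and 422 of 1098 in NRK-49F. In a model of cell line and pH over all 16 libraries, the pH effects of the 2 lines differed for 36.9% of 14679 genes tested, with 19.3% higher and 17.5% lower in NRK-52E relative to NRK-49F. Of 88 measured list genes, 27 were called higher and 8 lower in this sense, 39.8% in all.

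The genes whose levels ran most like that of Il33 over the 16 libraries were Slfn13, Agtrap, Loxl3, Tmem8a and Extl2, with Pearson's r of 0.996, 0.996, 0.995, 0.995 and 0.995 on log2(FPM + 1) among 9753 genes with at least 10 FPM in their highest group. Slfn13 had group means of 53.7, 13.02, 246 and 159.7 FPM in NRK-52E at pH 7.4, NRK-52E at pH 6.0, NRK-49F at pH 7.4 and NRK-49F at pH 6.0, the same order as Il33. The 16 points share cell line and pH and form 4 groups, so r mostly reflects 4 group means and is a description. For Il6 the 5 most alike genes were Mmp13, Klhl40, Prdx1, Fam102a and Reep4, with r of 0.928, 0.920, 0.915, 0.915 and 0.914 among 9754 genes. Mmp13, an interstitial collagenase, had group means of 0.0117, 0, 2.48 and 18.2 FPM in the same order of groups. The low counts of Il6 limit how well this likeness can be measured.

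RefSeq promoter windows of build GRCr8, from 250 bases before to 50 after each start, were matched by symbol for 8 of the 10 genes, in 9 windows since Il33 has 2 starts, and the entries for Lif and Csf1 were missing. They are printed for Il33 and Il1rl1, the ligand and receptor that were called in opposite directions in NRK-49F, and for Il6. Each window was searched on both strands for 6 motifs: the AP-1 site TGANTCA, the cyclic AMP response element TGACGTCA, the antioxidant response element core TGACNNNGC, the STAT site TTCNNNGAA, the NF-κB site GGGANTTTC and the TATA box TATAAA. These letters were held by 7.33%, 1.83%, 12.1%, 8.87%, 1.15% and 14.2% of all 33469 windows. Capitals mark the matches, and none of the printed matches overlapped another.
Il33, first start, chr1:237115323-237115622 on the plus strand: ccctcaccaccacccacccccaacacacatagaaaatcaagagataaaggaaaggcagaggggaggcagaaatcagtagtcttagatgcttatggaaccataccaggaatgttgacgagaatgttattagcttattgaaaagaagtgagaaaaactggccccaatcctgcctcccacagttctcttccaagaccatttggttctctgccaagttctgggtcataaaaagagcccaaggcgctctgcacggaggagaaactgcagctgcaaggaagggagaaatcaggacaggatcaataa
Il33, second start, chr1:237134696-237134995 on the plus strand: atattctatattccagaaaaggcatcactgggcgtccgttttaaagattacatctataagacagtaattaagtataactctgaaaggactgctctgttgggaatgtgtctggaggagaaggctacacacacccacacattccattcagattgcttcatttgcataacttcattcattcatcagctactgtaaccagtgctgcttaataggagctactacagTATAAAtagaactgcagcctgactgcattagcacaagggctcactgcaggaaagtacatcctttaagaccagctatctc
Il1rl1, chr9:50203388-50203687 on the plus strand: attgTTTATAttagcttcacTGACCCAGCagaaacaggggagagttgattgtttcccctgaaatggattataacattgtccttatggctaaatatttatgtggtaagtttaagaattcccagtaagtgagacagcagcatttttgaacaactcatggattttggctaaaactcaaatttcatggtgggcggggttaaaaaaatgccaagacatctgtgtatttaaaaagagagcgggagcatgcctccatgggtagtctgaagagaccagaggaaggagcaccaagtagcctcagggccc
Il6, chr4:5894526-5894825 on the minus strand: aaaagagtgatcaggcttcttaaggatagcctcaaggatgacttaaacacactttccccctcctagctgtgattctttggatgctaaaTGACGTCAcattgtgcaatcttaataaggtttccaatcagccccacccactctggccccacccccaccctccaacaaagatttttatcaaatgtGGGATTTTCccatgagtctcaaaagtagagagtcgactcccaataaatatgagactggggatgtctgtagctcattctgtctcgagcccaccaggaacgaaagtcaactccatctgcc

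The first Il33 window held none of the 6 motifs, and the second held a TATA box at bases 222 to 227 of the window. The Il1rl1 window held the antioxidant response element core at bases 21 to 29 and the TATA letters on the opposite strand at bases 5 to 10, far from the start. The Il6 window held a cyclic AMP response element at bases 89 to 96 and an NF-κB site at bases 183 to 191. Of the windows not printed, those of Il1a, Il18, Il11 and Osmr held an AP-1 site, that of Il1a also held TATA letters, and that of Il6st held none of the 6 motifs. A match is a description of the letters and not a bound site, and which Il33 start was used in these cells was not measured.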

How the data were processed

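The libraries held poly(A)-enriched RNA sequenced as read pairs. The counts are as the authors deposited them, raw fragments per Ensembl gene over exons from featureCounts on rn6, with multi-mapping fragments counted, so near-identical copies share counts, and with no strand setting named. The study's methods name tophat2 as the aligner and the submitters' processing notes name HISAT2 2.1.0, and which of them made the counts is not settled here. Groups follow the labels, and all 16 libraries were used.

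Each comparison was fitted on the whole table in the 8 libraries it concerns (the interaction in all 16) with edgeR 4.0.16 (quasi-likelihood test, TMM, filterByExpr) and DESeq2 1.42.0 in R 4.3.3, with Benjamini-Hochberg adjustment over all genes tested. Log2 fold changes are edgeR's, and the SE is the absolute log2 fold change over the square root of F. Ratios of summed counts have 95% Poisson intervals, and counts of 0 a floor of 3 counts over the group, both for counting error only. Leaving out single libraries from these ratios was chosen after seeing the data. Of each list and line, the text names up to 3 called rises and 3 called falls, where the groups did not overlap and the higher mean was 1 FPM or more. Some further called genes are named to mark that they passed the filter only through their higher group. The members and lists were chosen with earlier results of these data known.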

Additional observations from a re-analysis of the deposited data

Results flagged for a closer look

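In 36 groups of 4 libraries, the gap of the most distant library to its nearest neighbour was compared with the whole range of the group. In 4 groups a library lay past Dixon's 95% critical value. Chance alone would give about 1.8 such groups if all values were normally distributed. Groups with few fragments are not, so this figure does not hold for them. In NRK-49F at pH 7.4, N9 held 743.9 FPM of Il33 and the other libraries 670.3 to 680.9 FPM, and in NRK-49F at pH 6.0, N11 held 11.95 FPM of Il1rl1 and the others 18.46 to 18.83 FPM. Neither library reached the values of the other pH. For Il1a, N6 of NRK-52E (0.0476 FPM) and N9 of NRK-49F (0.0572 FPM), both at pH 7.4, stand apart only because each held 1 fragment and the other libraries of the group held 0.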

How the results depend on the processing

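The calls of Il33 and Il1rl1 in NRK-49F held in all 19 alternatives tried for each, among them other scalings and filters, each tool alone, an FDR of 0.05, a fit of all 16 libraries, the second number as a covariate or within each number, and each library left out in turn, with log2 fold changes of −1.49 to −1.40 and 1.79 to 2.35. Of 77 recomputed summary counts over the members or the lists, 75 stayed within 1.5 times the value of the main fit. The other 2 concern pH in NRK-52E, the contrast that chose the genes: the count, 4 beside 56.7% of all genes tested, was 2 with only the libraries of number 21 and 1 with only those of number 22, and nothing is read from it. The member counts also take in genes given without a test: Il6 for pH in NRK-49F, and Il1rl1, Il6 and Il11 between the lines. Those between the lines therefore differ from the counts of tested members given above, and nothing about these is read from them. No called fold change of the members changed sign in any alternative. Il6st between the lines at pH 7.4 lost its call in 6 of 16. The cause was not tested. With library totals in place of TMM the median log2 fold change of all genes moved by −0.21 for pH in NRK-52E, 0.31 between the lines at pH 7.4 and 0.15 at pH 6.0, and fold changes are read relative to it. The balance of calls moved as well, to 2901 higher and 4233 lower for pH in NRK-52E (3877 and 3916 with TMM), 4943 and 3330 between the lines at pH 7.4 (4668 and 4670) and 4333 and 3736 at pH 6.0 (3939 and 4312), so the even split of calls depends on the scaling. Apart from these 77, 608 counts of called list genes were recomputed. Of them 553 stayed within 1.5 times, and the others moved further, of which only some are named above. The labels do not say that the second number pairs libraries. As a covariate it changed no call of the members that have a test. Low counts limit Il6, Il1a, Il18 and Il11 in NRK-49F and Il33 at pH 6.0 in NRK-52E.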
